A study of Mus musculus with 12 samples.

Results

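Neurexins, their secreted ligands and the neuroligins were followed in sorted embryonic cortical cells of 2 labelled origins. The 9 genes were Nxph1, Cbln1, Cbln2, Cbln4, Nrxn2, Nrxn3, Nlgn1, Nlgn2 and Nlgn3, taken as every probe set of the deposited table that carried 1 of these symbols alone. All 9 of the 9 were present, of 11358 gene symbols in the table, and 20 probe sets read them. RNA was hybridised to 12 Affymetrix Mouse430_2 arrays, 3 for each of 4 groups. MGE cells, which arise in the medial ganglionic eminence, came from Nkx2-1-Cre;R26R-YFP embryos at E14.5 and at E18.5. Cells labelled CGE, for the caudal ganglionic eminence, came from Nkx2-1-Cre;Dlx1-lox-Venus-lox embryos at E16.5 and at E18.5. All 4 groups therefore carried Nkx2-1-Cre, and the mice were of mixed C57BL/6/CBA background. In the first cross the Cre switched a YFP reporter on in every descendant of an Nkx2-1-expressing cell, whatever its type, and in the second it removed a Dlx1-driven Venus, so that the cells left were Dlx1-expressing cells without an Nkx2-1 history. Cortices of several embryos were pooled before sorting, in numbers that the labels and methods do not state. The p-values therefore measure only the spread between these arrays.

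Neurexins are presynaptic membrane proteins that reach across the synaptic cleft and bind a range of partners. Neuroligins are their classical postsynaptic receptors, with Nlgn1 best known from excitatory synapses, Nlgn2 from inhibitory synapses and Nlgn3 from both. Neurexophilins are secreted proteins that bind the long alpha form of neurexins, and cerebellins are secreted members of the C1q family that tie neurexins to postsynaptic delta glutamate receptors. In the adult cortex Nxph1 is a well-known gene of MGE-derived interneurons.

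The labels of the sorted cells were set against marker genes. The mean of Lhx6, Sox6, Maf and Sst lay between 11.31 and 12.37 on the MGE arrays and between 9.45 and 10.67 on the CGE arrays (log2 intensity). The mean of Sp8, Prox1, Htr3a and Nr2f2 lay between 6.63 and 7.63 on the MGE arrays and between 11.48 and 12.24 on the CGE arrays. The 8 oligodendrocyte precursor markers averaged 10.95 to 11.66 on the MGE arrays at E18.5 against 5.52 to 7.14 on all other arrays. The 3 markers of the lateral eminence and olfactory lineage averaged 10.51 on CGE E16.5 replicate 1 against 8.54 and 8.59 on its other 2 replicates. On all 3 CGE arrays at E18.5 they averaged 10.21 to 11.28. On the MGE arrays they averaged 6.59 to 6.97 at E14.5 and 7.56 to 7.91 at E18.5. The part of such cells in the CGE values was not tested. MGE E14.5 replicates 1 and 2 lay closer to each other than any other replicate pair (SD of their log2 differences 0.231, against 0.376 to 0.518), and both were kept. In RNA of many cells, fewer cells of a type and less RNA per cell cannot be told apart.

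The upstream sequences of Nxph1, the member with the largest difference between the lineages at E18.5, and of Nlgn1, the member with the largest difference between the MGE ages, are given for orientation. They are the 250 bases before an annotated start in RefSeq (GRCm38.p6), 5′ to 3′ along the gene's strand. The table used here held such an entry for 5 of the 9 genes. Capitals mark the letters CCAAT or their reverse complement.
Nxph1, chr6:8949769-8950018, plus strand: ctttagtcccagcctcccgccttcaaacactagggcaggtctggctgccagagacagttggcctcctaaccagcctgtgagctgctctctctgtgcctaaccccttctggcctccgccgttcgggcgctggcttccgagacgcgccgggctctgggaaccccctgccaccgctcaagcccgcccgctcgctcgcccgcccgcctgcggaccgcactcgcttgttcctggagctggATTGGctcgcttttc
Nlgn1, chr3:26331910-26332159, minus strand: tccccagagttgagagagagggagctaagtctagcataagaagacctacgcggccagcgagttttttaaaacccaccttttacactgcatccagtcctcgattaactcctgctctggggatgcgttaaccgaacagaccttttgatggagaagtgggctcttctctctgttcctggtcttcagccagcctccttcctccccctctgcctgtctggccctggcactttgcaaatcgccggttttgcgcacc
Both windows lie inside the span of the gene record (6:8948614-9249619 for Nxph1 and 3:25421808-26332866 for Nlgn1), and whether they hold exon or intron was not determined. For Nlgn1 the table lists a second start that is not shown. The Nxph1 window has 20 CpG pairs and 66.8% G and C, and the Nlgn1 window has 9 CpG pairs and 53.6%, where the median of all 32851 entries was 6 CpG pairs. CCAAT occurs once in the Nxph1 window, on the reverse strand, and 0 times in the Nlgn1 window, and 33.8% of all entries held it on either strand. The homeodomain core TAATTA was found 0 times in both windows, against 4.84% of all entries, and TATAAA 0 times, against 12.4%.

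Levels are log2 intensities of a probe set, and probe sets of different genes cannot be ranked by them. Each gene was represented by its brightest probe set that lay above the 40th percentile of its array (7.10 to 7.17) on at least 3 arrays. Of the 9 genes, 8 passed. Of these, 6 lay above this level on all 12 arrays, whereas Cbln2 passed through 5 CGE arrays and Nlgn1 through the 3 MGE arrays at E18.5 alone. These 2 genes were therefore bound to differ between groups once they passed, so their differences are given as a description, without p-values, and counts that include them support nothing. Where every array of the dimmer group lay below the level, the brighter group was also counted from the level itself, which is a rank on the array and not a detection limit. Cbln4, which encodes a cerebellin, lay below the level on all 12 arrays, between 3.91 and 5.41, and was not tested in the gene fit.

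**Figure D1:**
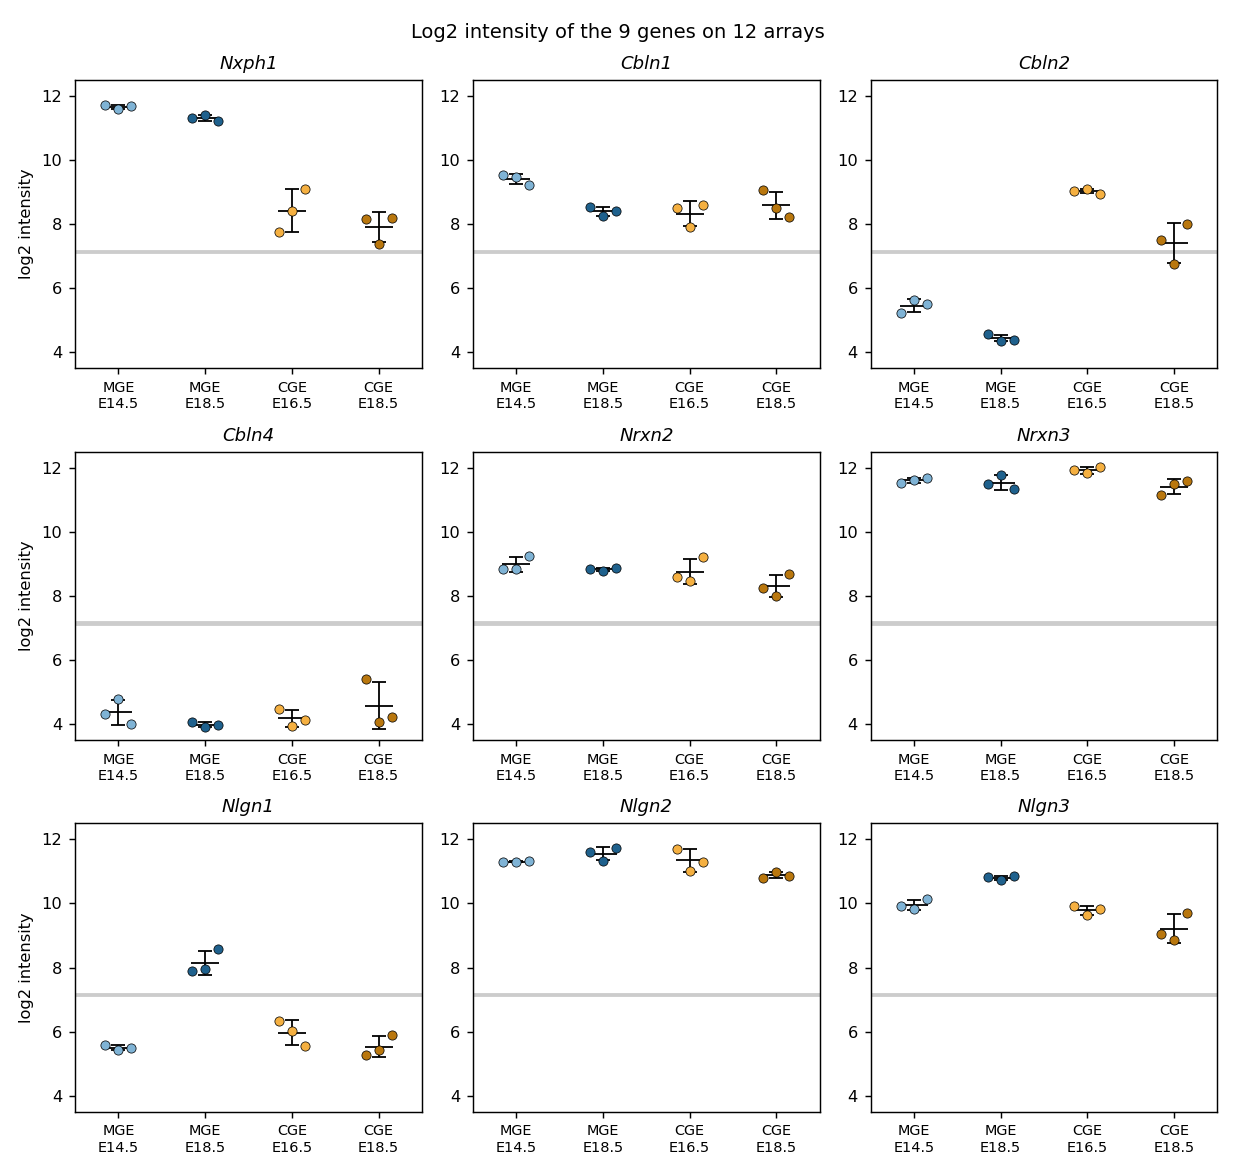
Log2 intensity (y axis) of the representative probe set of each gene, and of the only probe set of Cbln4, on the 12 arrays by group (x axis). Points are arrays, bars are the mean ± SD of 3 arrays, and the grey band is the filter level of 7.10 to 7.17. Nxph1 and Cbln2 separate all MGE from all CGE arrays, and Nlgn1 lies above the band only in MGE cells at E18.5.

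Among the ligands, Nxph1 was higher in MGE cells and Cbln2 read higher in CGE cells at both ages, whereas Cbln1 differed early and Cbln4 was dim throughout. Nxph1 (probe set 1459921_at) read 11.71, 11.57 and 11.67 in MGE cells at E14.5 and 11.32, 11.41 and 11.22 at E18.5. In CGE cells it read 7.75, 8.41 and 9.10 at E16.5 and 8.17, 7.38 and 8.18 at E18.5. Every MGE array lay above every CGE array. The difference was 3.23 ± 0.29 in the early lineage comparison of MGE E14.5 with CGE E16.5 cells (log2 difference ± SE, n = 3 arrays per group; limma adjusted p = 2.6e-05), or 9.39-fold. It was 3.41 ± 0.29 at E18.5 (adjusted p = 6.0e-06), or 10.6-fold. Among 8795 tested genes Nxph1 ranked 11 from the top in the early and 77 from the top in the late comparison. The other 2 probe sets moved alike, 1436718_at by 3.09 and 3.26 and 1438388_at by 3.63 and 3.61 in the early and the late comparison. All CGE values of 1438388_at lay below the filter level, and 1436718_at lay above it on 2 of 3 CGE arrays at E16.5 and 1 of 3 at E18.5. The lineage difference itself changed by 0.18 ± 0.41 (adjusted p = 0.849, 95% confidence interval -0.73 to 1.08).

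Within each lineage, Nxph1 gave no call with age in the fit of all 12 arrays. MGE cells at E18.5 differed from those at E14.5 by -0.33 (95% confidence interval -0.97 to 0.31, adjusted p = 0.464), although all 3 later arrays lay below the 3 earlier ones. Fitted on the MGE arrays alone, the same difference was called (SE 0.095, adjusted p = 0.0376). CGE cells differed by -0.51 (-1.15 to 0.13, adjusted p = 0.297), with overlapping arrays. The SD between replicates was 0.07 and 0.10 in MGE cells but 0.68 and 0.46 in CGE cells. The highest CGE value, 9.10, came from CGE E16.5 replicate 3, and the mean of the 4 MGE interneuron markers was also highest there among CGE arrays, at 10.67 against 9.80 and 10.22 in its other two replicates. The part of these markers in the CGE level of Nxph1 was not tested. Over the 12 arrays the genes with the pattern most like that of Nxph1 were Lhx6 (Pearson r = 0.993), the transcription factor of the MGE lineage, and Maf (r = 0.992), another MGE factor. These values describe arrays that fall into 4 groups.

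Cbln2, which encodes a cerebellin, had the opposite pattern. It read 9.04, 9.09 and 8.94 in CGE cells at E16.5 and 7.48, 6.76 and 7.997 at E18.5. In MGE cells it read 5.23, 5.63 and 5.49 at E14.5 and 4.55, 4.36 and 4.39 at E18.5. No 2 groups overlapped, in the order CGE E16.5, CGE E18.5, MGE E14.5 and MGE E18.5. Both MGE groups lay below the filter level on every array. The measured lineage difference was -3.58 early and -2.98 late. Counted from the filter level, CGE cells lay 1.90 higher at E16.5 (3.73-fold) and 0.27 higher at E18.5 (1.21-fold).

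With age, the measured Cbln2 difference in CGE cells was -1.61 ± 0.24, or 3.06-fold lower, with all 3 arrays at E18.5 below those at E16.5 and 1 of them below the filter level. In MGE cells both ages lay below the level, and no direction is given there. The most similar genes over the 12 arrays were Ube2ql1 (r = 0.984) and Nr2f2 (r = 0.984), the gene of the CGE factor COUP-TFII.

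Cbln1, which encodes the cerebellin best known from cerebellar granule cells, was highest in early MGE cells. Its brightest probe set (1423286_at) read 9.52, 9.45 and 9.22 in MGE cells at E14.5 and 8.54, 8.24 and 8.39 at E18.5. CGE cells read 8.50, 7.89 and 8.58 at E16.5 and 9.05, 8.49 and 8.21 at E18.5. The 3 MGE arrays at E14.5 lay above the other 9, which overlapped. The early difference was 1.07 ± 0.22 (adjusted p = 0.00922) and the late one -0.19 ± 0.22 (adjusted p = 0.584, 95% confidence interval -0.68 to 0.30). Between E14.5 and E18.5 Cbln1 fell by 1.01 in MGE cells (SE 0.22, adjusted p = 0.00807), while in CGE cells the difference was 0.26 ± 0.22 (adjusted p = 0.499).

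The change of the Cbln1 lineage difference was itself called, at -1.27 ± 0.32 (adjusted p = 0.0276), but not in every setting. Without MGE E14.5 replicate 1 or 2, CGE E16.5 replicate 2 or any of the 3 MGE E18.5 arrays, the adjusted p lay between 0.053 and 0.0768. The 2 other probe sets fell in MGE cells too, 1423287_at by 1.49 to below the filter level (adjusted p = 0.00475 over all probe sets) and 1423288_s_at by 1.25 (adjusted p = 0.0128). They did not all repeat the other results. The early difference was called for 1423287_at (1.12, adjusted p = 0.0409) and not for 1423288_s_at (0.84, adjusted p = 0.127), whose change of the lineage difference was -0.68 (adjusted p = 0.362). The most similar genes were Dnaja2 (r = 0.926) and Rnf170 (r = 0.895). The remaining cerebellin, Cbln4, had its highest value, 5.41, on CGE E18.5 replicate 1, and the other 11 arrays lay between 3.91 and 4.78.

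**Figure D2:**
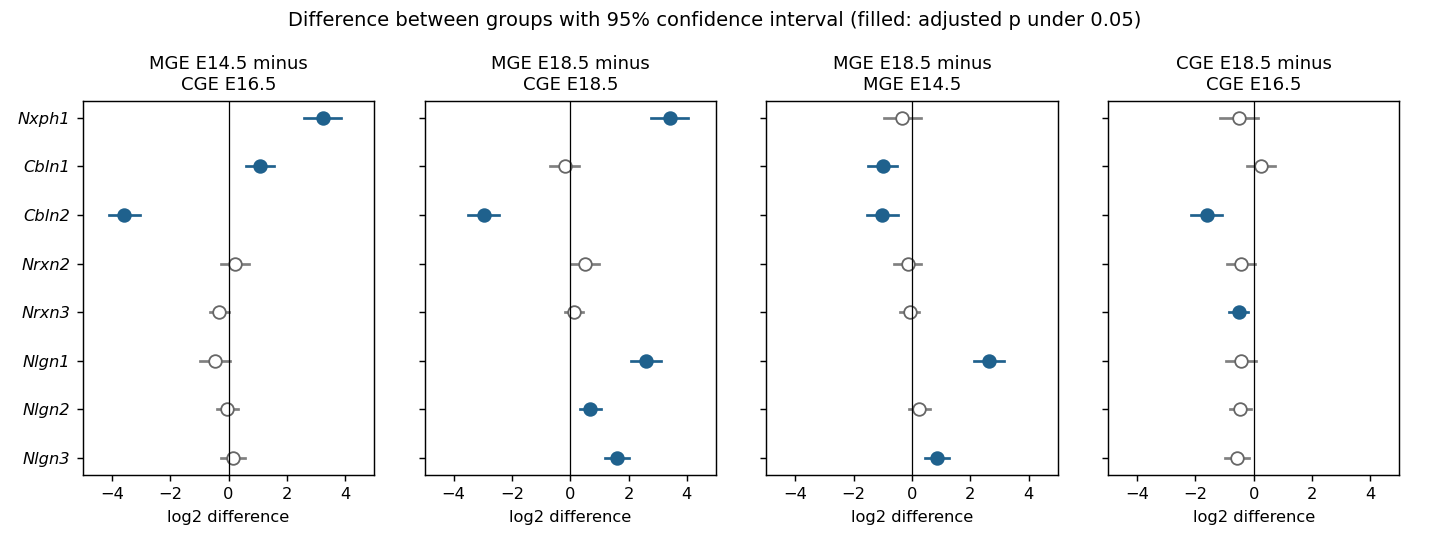
Log2 difference (x axis) of the 8 tested genes (y axis) in the 4 pairwise comparisons, with bars for the 95% confidence interval of the limma fit. Filled points had an adjusted p under 0.05. Nxph1 and Cbln2 stand on opposite sides in both lineage comparisons, and the 3 neuroligins are filled only in comparisons with MGE cells at E18.5. Cbln2 and Nlgn1 passed the filter only through their brighter groups, so their filled points are a description.

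Of the neurexins, neither representative probe set was called between the lineages, but the Nrxn3 probe sets were not uniform. Nrxn2 ranged over the 12 arrays from 7.99 to 9.25. It differed by 0.22 ± 0.22 early (adjusted p = 0.606) and 0.51 ± 0.22 late (adjusted p = 0.111). At E18.5 the MGE arrays, from 8.76 to 8.87, lay above the CGE arrays, from 7.99 to 8.69, but the difference passed the threshold in neither lineage comparison. With the replicate number as a block the late one did (adjusted p = 0.0274). Its confidence interval at E18.5 ran from 0.04 to 0.99. No age comparison called it either, with -0.15 in MGE cells (adjusted p = 0.665) and -0.44 in CGE cells (adjusted p = 0.218). Its most similar genes were Mmp24 (r = 0.960), which encodes a matrix metalloproteinase, and Rdh10 (r = 0.936), which encodes a retinol dehydrogenase.

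Nrxn3 was read by 5 probe sets, all above the filter level on the 12 arrays. The brightest, 1438193_at, ranged from 11.13 to 12.03. Its early difference was -0.32 ± 0.15 (adjusted p = 0.226), its late difference was 0.13 ± 0.15 (adjusted p = 0.565), and its MGE age difference was -0.08 ± 0.15 (adjusted p = 0.762). In CGE cells it read 11.91, 11.82 and 12.03 at E16.5 and 11.13, 11.47 and 11.58 at E18.5. This fall of 0.52 was called (SE 0.15, adjusted p = 0.0415), but the call was lost in 16 of 22 alternative settings. Among these was the mean of all 5 probe sets, with -0.17 and an adjusted p of 0.54.

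The Nrxn3 probe sets differed from each other in direction. In CGE cells 1433788_at and 1456137_at differed by -0.54 and -0.48 between the ages, like 1438193_at, but 1432931_at and 1439629_at differed by 0.08 and 0.60. In the late lineage comparison 1432931_at was -0.49 and 1439629_at was -1.06, and the latter passed the threshold (adjusted p = 0.0442 over all probe sets), while the other 3 lay between 0.02 and 0.13. The probe set 1439629_at read 10.15, 10.29 and 9.57 in MGE cells at E18.5 and 10.54, 11.54 and 11.10 in CGE cells. A single direction for Nrxn3 therefore could not be given at E18.5. The genes most like 1438193_at were Akap6 (r = 0.921) and Prrc2b (r = 0.920).

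Nlgn2 and Nlgn3 were higher in MGE than in CGE cells at E18.5 and were not called early, and Nlgn1 rose above the filter level in MGE cells at E18.5 alone. Nlgn1 (1437160_at) read 5.58, 5.43 and 5.47 in MGE cells at E14.5 and 7.88, 7.96 and 8.57 at E18.5. The CGE arrays read 6.33, 6.004 and 5.56 at E16.5 and 5.26, 5.44 and 5.90 at E18.5. Only the MGE arrays at E18.5 lay above the filter level, and the other 9 arrays overlapped between groups. The measured late difference was 2.60 and the measured difference between the MGE ages 2.64. Counted from the filter level, MGE cells at E18.5 lay 1.00 above it on the log2 scale against CGE cells (2.00-fold) and 1.01 against MGE cells at E14.5 (2.01-fold). The second probe set, 1421648_at, lay below the level on all 12 arrays, between 4.95 and 6.76, and says nothing on the direction.

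The brightest Nlgn3 probe set, 1436135_at, lay well above the filter level in every group. It read 9.94, 9.81 and 10.13 in MGE cells at E14.5 and 10.82, 10.74 and 10.85 at E18.5. CGE cells read 9.91, 9.63 and 9.84 at E16.5 and 9.06, 8.87 and 9.71 at E18.5. The MGE arrays at E18.5 lay above all others. The late difference was 1.59 ± 0.19 (adjusted p = 7.9e-05), or 3.01-fold, while the early one was 0.17 ± 0.19 (adjusted p = 0.668, 95% confidence interval -0.24 to 0.58). In MGE cells it rose by 0.84 ± 0.19 (adjusted p = 0.00845). In CGE cells it differed by -0.58 ± 0.19 with age (adjusted p = 0.0725). The lineage difference changed by 1.42 ± 0.27 (adjusted p = 0.00546). Both other probe sets had a called late difference, 1453756_at of 1.90 and 1456384_at of 1.46, and a called change of the lineage difference of 1.65 and 1.48. For 1453756_at the difference between the MGE ages was 0.82 (adjusted p = 0.0571). This probe set read 7.14, 6.82 and 8.10 in CGE cells at E18.5, with 2 of 3 arrays above the filter level.

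Nlgn2, the neuroligin of inhibitory synapses, had 1 probe set and a smaller difference. It read 11.59, 11.34 and 11.74 in MGE cells at E18.5 and 10.79, 10.97 and 10.86 in CGE cells at E18.5, without overlap. The difference was 0.68 ± 0.16 (adjusted p = 0.0108), or 1.60-fold. Without MGE E18.5 replicate 3 it was 0.59 with an adjusted p of 0.0527. The early groups overlapped, at 11.29, 11.28 and 11.32 against 11.71, 11.02 and 11.29 (-0.04 ± 0.16, adjusted p = 0.92). Neither age comparison was called, with 0.26 ± 0.16 in MGE cells (adjusted p = 0.303) and -0.47 ± 0.16 in CGE cells (adjusted p = 0.0931). The change of the lineage difference, 0.72 ± 0.23, was not called either (adjusted p = 0.0815).

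The MGE arrays on which Nlgn1 and Nlgn3 were high were also those with oligodendrocyte precursor markers. All 8 markers were called higher there, both against CGE cells at E18.5, by 1.70 (Ptprz1) to 6.49 (Nkx2-2), and against MGE cells at E14.5. Among the MGE E18.5 arrays, replicate 3 had the highest marker mean (11.66, against 11.14 and 10.95). It also had the highest Nlgn1 value (8.57, against 7.88 and 7.96). Nlgn3 was highest there too, by little (10.85, against 10.82 and 10.74). So were its other probe sets (9.59, against 9.14 and 9.04, and 10.03, against 9.74 and 9.68) and Nlgn2 (11.74, against 11.59 and 11.34). On the 3 MGE arrays at E18.5 the 5 pan GABAergic genes averaged 11.25 to 11.59, against 11.94 to 12.24 on the other 9. Of 6 tested radial glia and astrocyte markers, 4 were higher in MGE than in CGE cells at E18.5 and 1 was lower. In the early comparison 6 of the 8 precursor markers were higher and 1, Ptprz1, was lower in MGE cells, and no neuroligin was called. The genes with the pattern most like that of Nlgn1 were Alcam (r = 0.980), which encodes a cell adhesion molecule, and Hip1 (r = 0.978), those most like Nlgn3 were Chst11 (r = 0.962) and Zmat3 (r = 0.961), and those most like Nlgn2 were Ptpn9 (r = 0.944) and Trib2 (r = 0.921). The part of precursor cells in the neuroligin differences was not tested.

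**Figure D3:**
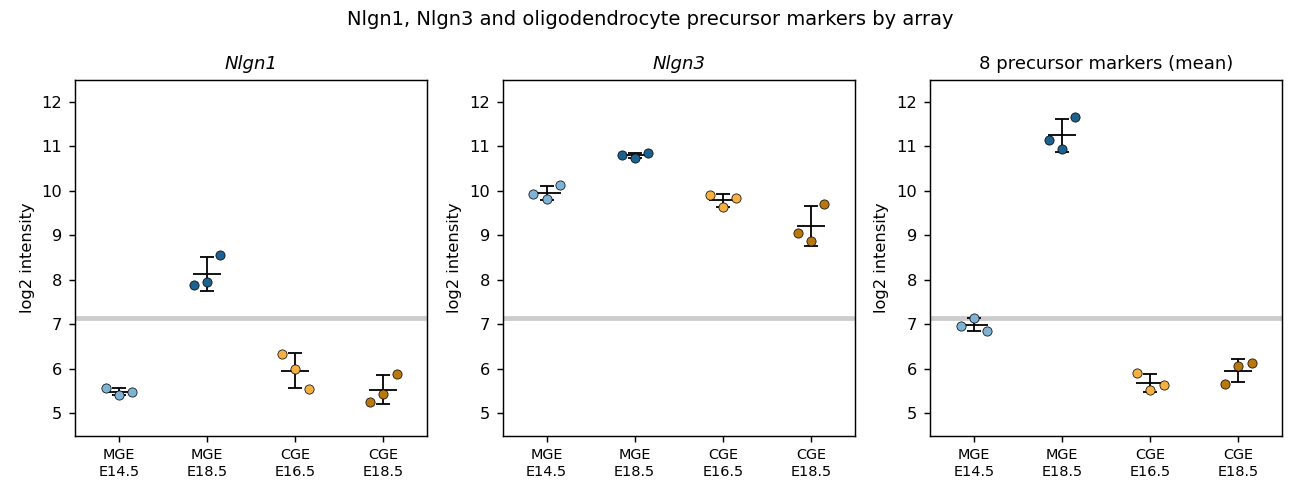
Log2 intensity (y axis) of Nlgn1, of Nlgn3 and of the mean of 8 oligodendrocyte precursor markers by group (x axis). Each point is an array, with bars for the mean ± SD of 3 arrays and a grey band for the filter level. All 3 panels are highest in MGE cells at E18.5, where the marker mean lies between 10.95 and 11.66.

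As counts over the 8 tested members, the early lineage comparison called 2 higher in MGE cells (Nxph1, Cbln1) and 1 lower (Cbln2), where 10.1% of all genes tested were called, 4.16% higher and 5.9% lower. The late comparison called 4 higher (Nxph1 and the 3 neuroligins) and 1 lower (Cbln2), against 22.8% of all genes, 13% higher and 9.85% lower. MGE maturation, E18.5 minus E14.5, called 2 higher (Nlgn1, Nlgn3) and 2 lower (Cbln1, Cbln2), against 21.2%, 11.4% higher and 9.77% lower. Cbln2 lay below the filter level at both MGE ages, so its call there gives no direction. CGE maturation, E18.5 minus E16.5, called 0 higher and 2 lower (Cbln2, Nrxn3), against 10.9%, 4.49% higher and 6.37% lower. The change of the lineage difference was called for 3 members, higher for Nlgn1 and Nlgn3 and lower for Cbln1, against 8.64%, 6.77% higher and 1.88% lower. Groups did not overlap for 4 members early and 6 late, against 33.1% and 36.8% of all genes, and for 6 with MGE age and 3 with CGE age, against 47.8% and 25.5%. Without Cbln2 and Nlgn1, the 6 members above the filter level on all arrays gave 2 higher and 0 lower early, 3 higher and 0 lower late, 1 and 1 with MGE age, 0 and 1 with CGE age, and 1 and 1 for the change. The median absolute difference of the 8 was 0.39 early and 1.13 late, against 0.19 and 0.25 over all genes. It includes Cbln2 and Nlgn1, which were bound to differ, and is a description only.

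**Figure D4:**
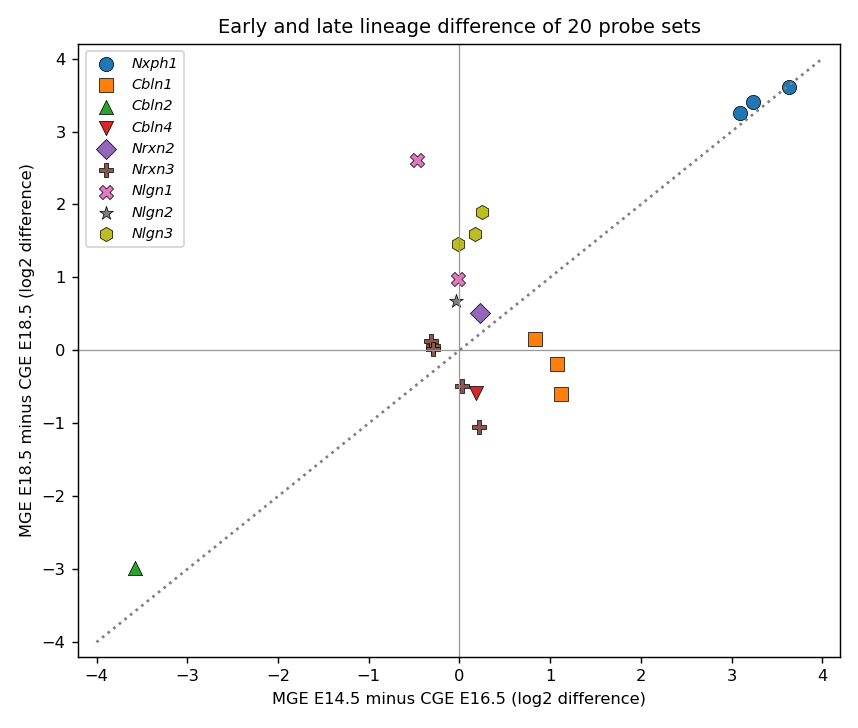
Log2 difference of each of the 20 probe sets in the early (x axis) and the late (y axis) lineage comparison, with 1 marker shape per gene and a dotted line of equal values. The 3 Nxph1 probe sets and Cbln2 lie near the line at opposite ends, the Nlgn1 and Nlgn3 probe sets lie above it, and the 3 Cbln1 probe sets lie below it.

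Other genes of trans-synaptic adhesion were taken from a list of 70, of which 59 were in the table and 54 were tested. In the early comparison 6 were higher and 10 lower in MGE cells, where 4.16% of all genes were higher and 5.9% lower, and the median was -0.02 for the list and for all genes. At E18.5 28 were higher and 4 lower, where 13% of all genes were higher and 9.85% lower, with a median of 0.73 against -0.02 for all genes. On the same MGE arrays all 8 oligodendrocyte precursor markers were higher (median 5.80), and their part in the list's values was not tested. With age, 17 were higher and 8 lower in MGE cells (median 0.18), and 3 were higher and 12 lower in CGE cells (median -0.34). The medians of all genes were -0.06 and -0.07. The change of the lineage difference was higher for 18 and lower for 1. Some listed genes, such as C1ql3 and Il1rap, passed the filter only through the 3 MGE arrays at E18.5. They were bound to be higher there once they passed. The counts and medians that involve MGE cells at E18.5, here and in the groups below, are therefore a description.

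Among other neurexins and neurexin ligands, 2 of 15 were higher and 2 lower early, and 11 were higher and 0 lower at E18.5, to be read against the same 13% and 9.85% of all genes late and 4.16% and 5.9% early, as are the counts of the other groups. Nxph2, the second neurexophilin, was higher in MGE cells by 2.81 ± 0.53 early (adjusted p = 0.00498) and 2.88 ± 0.53 late. Its group means were 11.26 in MGE and 8.45 in CGE cells early, and 9.94 and 7.06 late. The late CGE mean lay below the filter level, with 2 of 3 arrays above it. Adgrl2, a latrophilin, was higher early by 2.02, and C1ql3, a secreted C1q-family ligand, lay above the filter level only on the 3 MGE arrays at E18.5. Its means there and in CGE cells of that age were 8.25 and 4.17, and counted from the filter level it was 1.11 higher. Clstn2, a calsyntenin, was below the level in all early MGE arrays, with a mean of 6.30 against 8.06 in CGE cells, or 0.93 above the level. Both tested genes among receptors and blockers, Grid1 and Mdga2, were higher at E18.5. Grid1 had means of 7.65 in MGE and 5.19 in CGE cells there, and Mdga2 had 9.71 and 7.15. The CGE mean of Grid1 thus lay below the filter level and that of Mdga2 within it.

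Among the remaining adhesion genes, 3 of 23 were higher and 5 lower early, and 12 were higher and 3 lower late. Slitrk4, a ligand of receptor tyrosine phosphatases, had early means of 7.89 in MGE cells and 6.48 in CGE cells, where all arrays lay below the filter level, and was 0.78 higher counted from that level. Flrt1, a latrophilin ligand, and Lrrc4c, a netrin-G ligand, were -1.62 ± 0.20 and -1.60 ± 0.38. At E18.5 Lrrc4c was instead higher in MGE cells, by 2.16. At E18.5 Il1rap, an accessory receptor that also acts as a synaptic organiser, lay above the filter level in MGE cells alone, with means of 9.40 and 4.65, and was 2.26 higher counted from that level. Slitrk2 was higher by 2.94 ± 0.46, with 1 of 3 CGE arrays above the level. Tenm4, a teneurin, had means of 6.53 in MGE cells, below the level on all arrays, and 7.48 in CGE cells. Ptprs, a receptor tyrosine phosphatase, was -0.57 ± 0.11. Of 11 intracellular scaffolds, 1 was higher and 2 were lower early, and 3 were higher and 0 lower late. Of the 3 splicing factors of neurexins, Khdrbs3 was lower in MGE cells both early (-1.51 ± 0.20) and late (-1.38 ± 0.20).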

How the data were processed

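RNA of sorted embryonic cortical cells was hybridised to 12 Affymetrix Mouse430_2 arrays, 3 per group, after amplification with the NuGEN Ovation Pico system. The values deposited by the authors are log2 intensities made with Bioconductor after background correction and normalisation. MAS5 also stands in the submitters' processing notes, so the algorithm is not settled. Values lay between 3.23 and 14.97. Detection calls were not used, and dim values may be background. Arrays have no read depth, and their number limits the precision.

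Of 27094 probe sets, 34 were controls, 22339 had 1 gene symbol, 571 had several and 4150 had none in the platform annotation. Probe sets with 1 symbol above the 40th percentile of their array on at least 3 arrays were kept (16008), and the one with the highest mean represented its gene (8795 genes). limma 3.58.1 in R 4.3.3 fitted 1 mean per group over all 12 arrays (8 residual degrees of freedom), two-sided, with Benjamini-Hochberg adjustment over all genes within each of 5 comparisons and calls at an adjusted p under 0.05. A second fit took all 22339 probe sets. The fit was tested on simulated data. Members and lists were chosen with earlier results of these data known. Named beside the members were the called genes of the other lists with the largest differences, up to 3 per direction in each lineage comparison, and the 2 genes most correlated with each member. Alternatives left out each array, changed the filter, normalisation, weights, moderation, samples in the fit and probe set rule, and added a replicate block. No protein sequences were used here.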

Additional observations from a re-analysis of the deposited data

Results flagged for a closer look

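Whether the difference between the lineages changed between the early and the late comparison was tested as an interaction, and 2 of the 6 members above the filter level on all arrays passed. Of all genes tested, 8.64% passed, 6.77% higher and 1.88% lower. For Nlgn3 the late minus the early difference was 1.42 ± 0.27 (limma adjusted p = 0.00546), with 3 of 3 MGE arrays at E18.5 above every CGE array of that age. For Cbln1 it was -1.27 ± 0.32 (adjusted p = 0.0276), with 3 of 3 MGE arrays above the CGE arrays early and overlapping groups late. The Cbln1 call was lost in 7 of 21 alternative settings. Nlgn1 gave 3.07, but it passed the filter only through the 3 MGE arrays at E18.5 and lay below the level on the other 9, so this value is a description and no test is drawn from it. The early comparison sets E14.5 MGE cells against E16.5 CGE cells, so lineage and age cannot be told apart in it.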

How the results depend on the processing

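Over 22 alternative settings the count of called members stayed within 1.5 times its value for the early comparison (3) and for MGE maturation (4). Each main count here includes Cbln2, Nlgn1 or both, which were bound to differ once they passed the filter, so its stability supports nothing. Without these genes the main setting called 2 higher and 0 lower early, and 1 higher and 1 lower with MGE age. The late count was 5 and ranged from 3 to 6 when 1 array was left out. It was 3 without MGE E18.5 replicate 3, since Nlgn1 could pass the filter only with all 3 MGE E18.5 arrays and Nlgn2 lost its call without replicate 3. The count for the change of the lineage difference was 3 and ranged from 1 to 3, with 1 when any MGE E18.5 array was left out. The CGE maturation count was 2 and ranged from 1 to 3 without 1 array. It was 1 with no filter, with quantile normalisation, with array weights, with only the groups compared, with the mean of kept probe sets and with MGE E14.5 replicates 1 and 2 averaged, and 4 with trend and robust moderation.

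Of 861 member values under these settings and 3 for Nlgn1 that were added after seeing the data, 816 kept their direction and side of the threshold, 25 lost a call, 10 gained one and 10 changed sign. None of the latter was called in the main setting. These totals include Cbln2 and Nlgn1 and are a description. Nlgn2 early was 0.057 with array weights and ran from -0.20 to 0.14 with 1 array left out. Nrxn3 turned to -0.27 late and -0.14 for the change with the mean of its probe sets. Cbln1 with CGE age was -0.028 with that mean. With 1 array left out, Cbln1 late ran from -0.38 to 0.041, Nrxn3 late from -0.00075 to 0.23, Nrxn3 with MGE age from -0.20 to 0.027 and the Nxph1 change from -0.17 to 0.51. The cause was not tested. With the 2 close MGE E14.5 arrays averaged, the Cbln1 change had an adjusted p of 0.0715.

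The labels link replicates of different groups by number only. Deviations were correlated above 0.1 in 4 of 18 same-numbered pairs of arrays and in 6 of 36 differently numbered pairs. These counts cannot show whether same-numbered arrays were prepared together. With a replicate block, Nrxn2 late (0.51, adjusted p = 0.0274) and Nlgn3 with CGE age (-0.58, adjusted p = 0.0453) gained a call and Nrxn3 with CGE age (-0.52, adjusted p = 0.0545) lost one. Fitted on the MGE arrays alone, Nxph1 with MGE age (-0.33, adjusted p = 0.0376) gained a call. Without MGE E14.5 replicate 2, Cbln2 with MGE age lost one, but both MGE groups lay below the filter level and no test is drawn from it. Dim signal limits Cbln4, Cbln2 in MGE cells, and Nlgn1, C1ql3 and Il1rap outside MGE E18.5. It also limits Slitrk4, Clstn2, Tenm4, Grid1, Mdga2 and Nxph2 in the groups named.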
